A study of Mus musculus with 12 samples.

Results

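The genes examined here are chains of collagen VI, without Col6a4, and collagens that span the cell membrane or sit at its surface and at junctions. These are Col6a1, Col6a2, Col6a3, Col6a5, Col6a6, Col8a1, Col8a2, Col13a1, Col18a1 and Col22a1. They were taken by symbol from the table of gene counts, and all 10 were found among its 18996 genes, which include 44 collagen genes. Poly(A) RNA of mouse paraspinal soft tissue was sequenced in 3 groups with 4 mice each, to see what surgery with and without opening of the spinal canal does to the tissue. All groups are BALB/c mice, given as 5 to 7 weeks old in the general methods of the study, with no transgene named for them. The only drug named is the anaesthetic tribromoethanol, which the methods give for the laminectomy model. The No operation group had no surgery and supplied paraspinal soft tissue. The SHAM group had paraspinal soft tissue removed with the laminae left in place, and the Laminectomy group had laminae removed as well; both supplied soft and scar tissue, which the study dates to day 7 after surgery. The surgical groups and the No operation group thus differ in the labelled tissue as well as in surgery, and these cannot be told apart. Total counts per mouse ran from 16802989 to 18077868.

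Collagen VI is built from an alpha1, an alpha2 and an alpha3-like chain, which assemble inside the cell and are secreted as beaded microfilaments that sit between basement membranes and the interstitial matrix. In skeletal muscle it is made mainly by interstitial fibroblasts, and loss of any of its main chains causes muscle disease. Collagen VIII forms short-chain networks in vessel walls and under endothelia, collagen XIII is a transmembrane collagen of adhesion sites and the neuromuscular junction, collagen XVIII is a basement membrane proteoglycan whose end fragment is endostatin, and collagen XXII is deposited at myotendinous and other tissue junctions.

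The tissue label was compared with marker genes. All 7 skeletal muscle fibre markers were detected in every mouse, and their summed level was 77521, 73080, 84594 and 103131 CPM in No operation mice 1 to 4, 1877, 4703, 6398 and 7028 CPM in SHAM mice 1 to 4 and 2297, 10143, 8454 and 7518 CPM in Laminectomy mice 1 to 4. CPM, the usual normalised read count, is scaled here by library totals after TMM, edgeR's trimmed mean of M-values. Muscle transcripts were thus abundant in the tissue labelled as unoperated and low in all 8 surgical samples, and all 7 markers fell in both comparisons with No operation. The most abundant gene named for each marker list is that with the highest mean over the 12 mice, and need not lead in each mouse. Here it was Myh4, a fast myosin heavy chain, although Acta1, skeletal muscle actin, was above it in No operation mouse 1 and in all 8 surgical mice. Myh4 ranged from 17506 to 34501 CPM without surgery and from 350 to 2409 CPM after it. In bulk tissue, fewer cells of a type and less RNA per cell cannot be told apart.

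Other cell types moved as well, and their part in the collagen results was not tested. The 10 fibroblast markers summed to 6676 to 22023 CPM in No operation, 44794 to 60905 CPM in SHAM and 41222 to 47129 CPM in Laminectomy mice, with Col1a1 the most abundant; 6 rose and 1 fell in SHAM, and 6 rose and 2 fell in Laminectomy. The 5 macrophage markers, led by Csf1r, summed to 289 to 760 CPM in No operation, 1566 to 3342 CPM in SHAM and 1068 to 1493 CPM in Laminectomy mice, with 5 risen in SHAM and 4 in Laminectomy. The endothelial markers, led by Pecam1, had similar sums, with 460 to 802 CPM over the 12 mice, and 2 of 6 fell in each surgical group. The 6 smooth muscle and pericyte markers, led by Rgs5, summed to 928 to 1362 CPM in No operation and 343 to 796 CPM in surgical mice, and 5 fell in SHAM and 3 in Laminectomy.

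Marker genes of bone, nerve, epidermis and fat were unevenly present. The 5 bone markers, led by Ibsp, summed to 18.7, 514, 161 and 38.4 CPM in No operation mice 1 to 4, 2.47, 121, 40.9 and 115 CPM in SHAM mice 1 to 4 and 1791, 1710, 699 and 632 CPM in Laminectomy mice 1 to 4. The Laminectomy mice lay above all others, and 1 of the 5 was at 0 counts in No operation mouse 1 and SHAM mouse 1. In SHAM 1 bone marker fell, and in Laminectomy edgeR called 0 of 5, with 2 higher at an unadjusted p under 0.05 and 2 called higher by DESeq2. Neuronal markers, led by Snap25, summed to 130 CPM in Laminectomy mouse 2 and 37.5 CPM in Laminectomy mouse 3 and to 0 to 0.320 CPM elsewhere, with all 3 at 0 counts in No operation mice 1 and 4; the low-count filter removed all 3 from edgeR's test, and DESeq2 called all 3 higher in Laminectomy and 0 in SHAM against No operation. The 5 Schwann cell and glia markers, led by Mbp, summed to 787 CPM in Laminectomy mouse 2 and to 36.5 to 231 CPM in the other mice; of 4 tested, 1 rose in Laminectomy, and in SHAM 0 passed in edgeR, 0 were under an unadjusted p of 0.05 and DESeq2 called 0. The 3 epidermal markers, led by Krt10, summed to 90.8 CPM in SHAM mouse 1 and 71.4 CPM in SHAM mouse 3 and to 2.21 to 7.70 CPM elsewhere; of 2 tested, 1 rose in SHAM, and in Laminectomy 0 passed in edgeR, 0 were under an unadjusted p of 0.05 and DESeq2 called 0. The 5 adipocyte markers, led by Fabp4, summed to 1146 to 2179 CPM in No operation, 249 to 1295 CPM in SHAM and 72.5 to 401 CPM in Laminectomy mice, and 3 fell in SHAM and 5 in Laminectomy.

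In GENCODE M21 on build GRCm38, Col6a1 lies at chr10:76708792-76726168, Col6a2 at chr10:76595762-76623630, Col6a3 at chr1:90765923-90843971, Col6a5 at chr9:105856078-105960643 and Col6a6 at chr9:105687809-105828160. Col8a1 lies at chr16:57624258-57754737, Col8a2 at chr4:126286793-126314330, Col13a1 at chr10:61838236-61979108, Col18a1 at chr10:77052178-77166548 and Col22a1 at chr15:71795795-72034227.

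SHAM mouse 1 stood apart from the other SHAM mice: on the second principal component of all genes tested it lay at 76.0, and the other SHAM mice at 24.1, 18.5 and 0.07. It also had the lowest muscle and cartilage sums and the highest macrophage sum of the 12 mice. The other groups were not uniform either. Laminectomy mouse 1 lay at 83.9 on the first component, and the other Laminectomy mice at 33.4, 33.7 and 38.4. No operation mice 1 to 4 lay at 33.8, -35.8, -17.4 and 25.5 on the second.

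In SHAM against No operation, 5 of the 10 genes rose and 2 fell in edgeR's quasi-likelihood test, called at an adjusted p under 0.05 and an absolute log2 fold change over 0.5; of the 14765 genes tested, 25.7% rose and 25.1% fell. In Laminectomy against No operation, 6 rose, against 24.2% of the genes tested, and 0 fell, against 24.4%. For that 0, edgeR gave no member lower at an unadjusted p under 0.05 and DESeq2 called 0 lower. The median log2 fold change over the 10 genes was 0.97 in SHAM and 1.56 in Laminectomy, beside 0.72 and 1.44 over the 33 other collagen genes tested and -0.00 and 0.01 over all genes tested. The medians of the members and of the other collagens were both above that of all genes. Both comparisons share the No operation mice. Scaling by library totals only moved the median of all genes by 0.255 in SHAM and 0.319 in Laminectomy, and 66% and 69.9% of calls were then higher, beside 50.6% and 49.8% with TMM; under it the log2 fold changes of Col6a6 and Col13a1 in Laminectomy, which were not called, were 0.09 and 0.10 in place of -0.24 and -0.18.

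The groups did not overlap for 6 of the 10 genes in SHAM against No operation, beside 54.5% of all genes tested, and for 6 of the 10 in Laminectomy against No operation, beside 56% of all genes tested. These shares are near those of all genes. In Laminectomy against SHAM, edgeR called 0 of the 10 and 0 of all 14765 genes, which is 0% of them. At an unadjusted p under 0.05, 4 of the 10 were higher in Laminectomy, beside 9 of the 33 other collagen genes and 6.95% of all genes tested. Higher values in Laminectomy were thus not particular to the members among collagens. DESeq2 called 2 of the 10 and 696 genes in all, which is 4.35% of the 15997 genes with an adjusted p there. The 4 were Col8a1, Col8a2, Col13a1 and Col22a1. Only Col13a1 and Col22a1 were under an unadjusted p of 0.05 with each library left out in turn. They were the only members left without SHAM mouse 1, where 5.08% of all genes were higher, and without SHAM mouse 4, where 7.65% were. Col8a1 was also lost without SHAM mouse 2 or Laminectomy mouse 1, 2 or 3, and Col6a6 was lower at an unadjusted p under 0.05 without SHAM mouse 2 or Laminectomy mouse 3. The groups did not overlap for 2 of the 10, Col13a1 and Col22a1, beside 8 of the 33 other collagen genes and 10.1% of all genes tested.

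**Figure D1:**
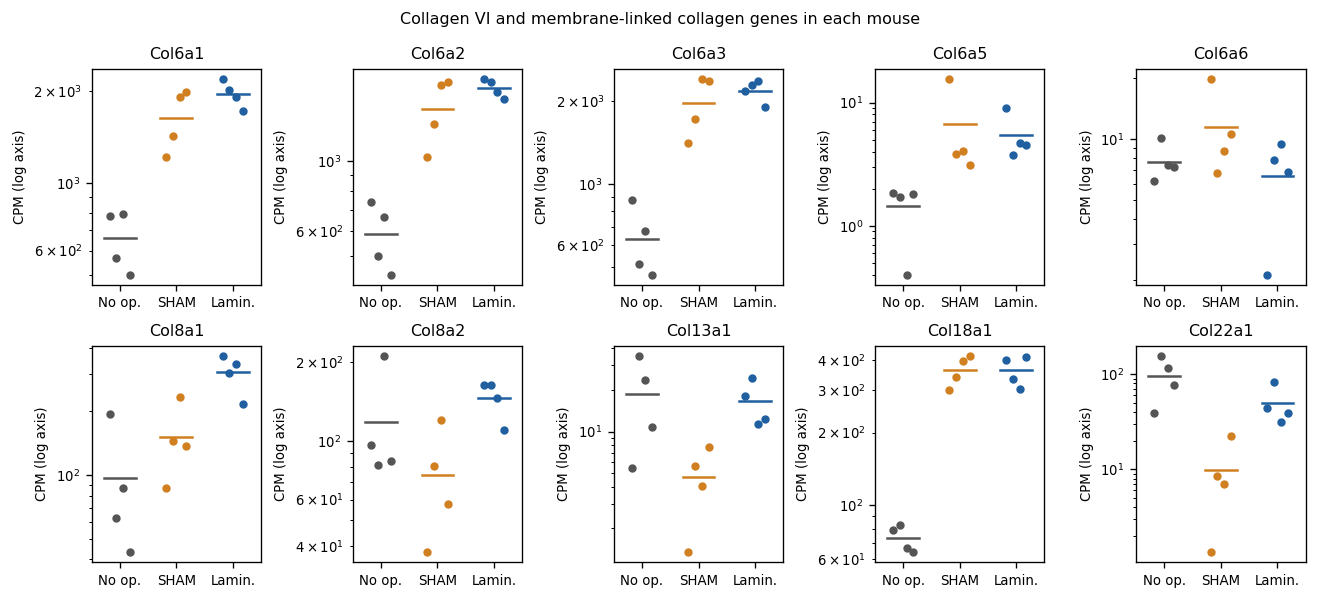
Normalised level of each of the 10 genes in every mouse, as CPM on a log axis that differs between panels; each point is a mouse and each bar the mean of the 4 mice of a group. Col18a1 lies at 63.9 to 83.1 CPM in No operation mice and at 301 to 416 CPM in the surgical mice, and Col22a1 at 1.35 to 22.6 CPM in SHAM mice and at 31.7 CPM or more in the others.

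The obligate chains of collagen VI are the most abundant members. Col6a1 encodes the alpha1 chain and had 780, 569, 793 and 499 CPM in No operation mice 1 to 4, 1219, 1425, 1920 and 1985 CPM in SHAM mice 1 to 4 and 2203, 2020, 1911 and 1729 CPM in Laminectomy mice 1 to 4. Every surgical mouse lay above every No operation mouse, and the surgical groups overlapped. Col6a1 rose by a log2 fold change of 1.31 (SE 0.208, edgeR adjusted p 0.000243) in SHAM. In Laminectomy the log2 fold change was 1.57 (SE 0.210, edgeR adjusted p 9.41e-05).

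Col6a2 encodes the alpha2 chain and was at 741, 498, 663 and 434 CPM in No operation, 1027, 1309, 1739 and 1785 CPM in SHAM and 1825, 1775, 1651 and 1572 CPM in Laminectomy mice 1 to 4. Col6a3, the long alpha3 chain whose cleaved end is endotrophin, was at 876, 515, 678 and 469 CPM in No operation, 1410, 1717, 2404 and 2349 CPM in SHAM and 2160, 2278, 2362 and 1903 CPM in Laminectomy mice 1 to 4. For both genes all surgical mice were above all No operation mice, SHAM mouse 1 was the lowest surgical mouse, and SHAM and Laminectomy overlapped. Col6a2 rose by a log2 fold change of 1.33 (SE 0.216, edgeR adjusted p 0.000292) in SHAM and 1.55 (SE 0.217, edgeR adjusted p 0.000131) in Laminectomy. Col6a3 rose by 1.63 (SE 0.235, edgeR adjusted p 0.000122) in SHAM and 1.78 (SE 0.236, edgeR adjusted p 9.22e-05) in Laminectomy. Without SHAM mouse 1, the SHAM log2 fold changes were 1.43 for Col6a1, 1.47 for Col6a2 and 1.77 for Col6a3.

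Col6a5 and Col6a6 encode alternative alpha3-like chains that can take the place of alpha3, and both are neighbours on chromosome 9, with 27917 bases between them. Their values are uncertain: in SHAM mouse 3 and Laminectomy mouse 3 both genes carried fractional values, of 76.25 and 163.75 and of 90.27 and 181.73, that add up to the whole numbers 240 and 272, and how reads were assigned between them is not given in the sources used here. Col6a5 was at 1.86, 1.70, 0.400 and 1.82 CPM in No operation, 15.6, 3.85, 4.02 and 3.10 CPM in SHAM and 9.05, 3.75, 4.66 and 4.54 CPM in Laminectomy mice 1 to 4. SHAM mouse 1 and Laminectomy mouse 1 were high, and every surgical mouse was above every No operation mouse. Col6a5 rose by a log2 fold change of 2.20 (SE 0.607, edgeR adjusted p 0.00824) in SHAM, which was 1.34 without SHAM mouse 1 (edgeR adjusted p 0.0269). In Laminectomy it rose by 1.92 (SE 0.604, edgeR adjusted p 0.0167), and without Laminectomy mouse 1 the value was 1.58 and no longer passed (edgeR adjusted p 0.0512). Over the settings tried the adjusted p was 0.00279, by DESeq2, to 0.0512, by edgeR.

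Col6a6 was at 6.20, 10.1, 7.39 and 7.22 CPM in No operation, 19.9, 6.74, 8.69 and 10.6 CPM in SHAM and 2.12, 7.87, 9.43 and 6.83 CPM in Laminectomy mice 1 to 4. All groups overlapped, with SHAM mouse 1 high and Laminectomy mouse 1 low. Col6a6 was not called in either comparison with No operation, with log2 fold changes of 0.57 (SE 0.422) and -0.24 (SE 0.424); without SHAM mouse 1 the SHAM value was 0.17. Col6a5 made up 5.13% to 23.1% of the reads of both genes in No operation, 22.6% to 44.0% in SHAM and 32.3% to 81.0% in Laminectomy mice. Counted together, both genes were at 8.06, 11.8, 7.79 and 9.04 CPM in No operation, 35.5, 10.6, 12.7 and 13.7 CPM in SHAM and 11.2, 11.6, 14.1 and 11.4 CPM in Laminectomy mice 1 to 4. SHAM mouse 1 was far above all others, and SHAM and No operation overlapped. The joint count passed in SHAM with a log2 fold change of 0.98 (SE 0.337, edgeR adjusted p 0.0243). Without SHAM mouse 1 this value fell to 0.43 and was not called. It stayed at 0.93 without No operation mouse 1, 0.91 without No operation mouse 3 and 0.97 without No operation mouse 4, but was not called there either. The edgeR adjusted p was 0.0107 to 0.0627 over all libraries left out in turn. In Laminectomy the joint count was not called, with 0.39 (SE 0.336, edgeR adjusted p 0.330). The joint count was chosen after the fractional values were seen, and its values with a library left out after the joint values were seen.

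Levels of different genes can be compared per kilobase of the principal coding transcript. On the scale of CPM per kilobase, the level of Col6a1 was 161 ± 36.3 (SD, n = 4) in No operation, 399 ± 91.3 in SHAM and 479 ± 48.5 in Laminectomy mice, and that of Col6a2 was 148 ± 36.0, 371 ± 91.7 and 432 ± 29.1. The values of Col6a1 and Col6a2 overlapped in each group, while within each of the 12 mice Col6a1 was the higher at these transcript lengths. Such comparisons between genes depend on the length used: with merged exons, an alternative chosen after the ratios were seen, the ratio of Col6a1 to Col6a2 was 2.00 to 2.30 in the 12 mice. The level of Col6a3 on the same scale was 70.5 ± 20.5, 219 ± 54.0 and 242 ± 22.2 CPM per kilobase. Col6a5 and Col6a6 were far lower, at group means of 0.156 to 0.716 and 0.747 to 1.31 CPM per kilobase.

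Ratios between chains within a mouse do not depend on library scaling. The ratio of Col6a1 to Col6a2 in CPM per kilobase was 1.01, 1.10, 1.15 and 1.11 in No operation, 1.14, 1.05, 1.06 and 1.07 in SHAM and 1.16, 1.10, 1.11 and 1.06 in Laminectomy mice 1 to 4. The ranges of this ratio overlapped between all groups, and No operation reached the lowest value. The ratio of Col6a1 to Col6a3 was 1.95, 2.42, 2.57 and 2.34 in No operation, 1.90, 1.82, 1.75 and 1.86 in SHAM and 2.24, 1.95, 1.78 and 1.99 in Laminectomy mice 1 to 4. All SHAM mice lay below all No operation mice, and Laminectomy mice overlapped both. The ratio of Col6a2 to Col6a3 was 1.93, 2.20, 2.23 and 2.11 in No operation, 1.66, 1.74, 1.65 and 1.73 in SHAM and 1.93, 1.78, 1.59 and 1.88 in Laminectomy mice 1 to 4. Both surgical groups lay below the No operation mice, although Laminectomy mouse 1 and No operation mouse 1 were equal to the digits printed.

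A two-sided exact permutation test over mice was applied to the log2 ratios of 6 pairs in 3 comparisons, and 0 of these 18 tests passed Benjamini-Hochberg adjustment, where 11 of the 18 would have to reach the smallest p for any at that p to pass. The smallest p that 4 against 4 mice allow in this exact test is 0.0286, and it was reached by Col6a1 to Col6a3 in SHAM, Col6a2 to Col6a3 in SHAM and in Laminectomy, and Col6a6 to Col6a3 in Laminectomy, each against No operation, with an adjusted exact permutation p of 0.129. The mean log2 ratio changed by -0.33 for Col6a1 to Col6a3 in SHAM, by -0.32 for Col6a2 to Col6a3 in SHAM and by -0.24 in Laminectomy. For Col6a6 to Col6a3 in Laminectomy the difference was -2.21, and it carries the uncertainty of the Col6a6 values.

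**Figure D2:**
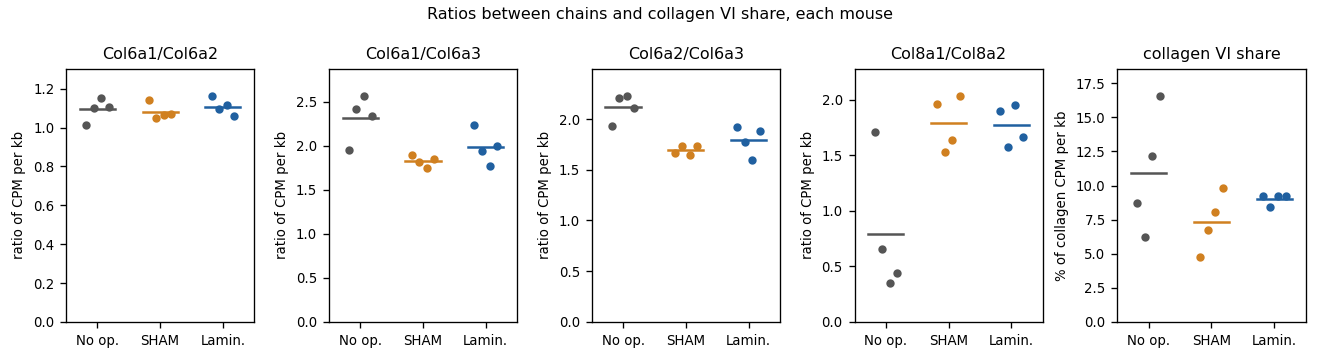
Ratios between chains in CPM per kilobase and the share of collagen VI in all collagen genes, for each mouse; points are mice and bars are group means of 4 mice. With principal transcript lengths, Col6a1 to Col6a2 stays between 1.01 and 1.16 in all mice, and Col8a1 to Col8a2 is below 1 in 3 of 4 No operation mice.

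Col6a4, which is not among the genes examined here, was at a mean of 0.251 CPM in No operation, 2.59 CPM in SHAM and 1.77 CPM in Laminectomy mice. Collagen VI genes, 6 in all with Col6a4, made up 8.71%, 6.19%, 12.2% and 16.6% of the summed collagen CPM per kilobase in No operation mice 1 to 4, 4.73%, 6.74%, 8.09% and 9.84% in SHAM and 9.22%, 8.43%, 9.22% and 9.25% in Laminectomy mice. The groups overlapped, and the share was not higher in surgical tissue although the level of its main chains was. The mean was 10.9% ± 4.50 (SD, n = 4) in No operation, 7.35% ± 2.16 in SHAM and 9.03% ± 0.402 in Laminectomy mice. Over the same mice, Col1a1, Col1a2 and Col3a1 together made up 69.1% ± 10.4, 80.5% ± 3.95 and 76.2% ± 0.630. All 44 collagen genes took 0.988% to 3.15% of scaled counts in No operation and 6.41% to 8.70% in surgical mice.

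Of 14 tested genes for collagen VI binding partners and receptors, 5 rose and 5 fell in SHAM and 5 rose and 3 fell in Laminectomy, with median log2 fold changes of -0.12 and 0.52 beside -0.00 and 0.01 over all genes tested. The SHAM falls depend on the setting: 0 of them were called with library totals only, 2 with the replicate block and 3 with only the compared groups. They numbered 1 without SHAM mouse 2, 2 without SHAM mouse 4 or No operation mouse 3, and 3 without SHAM mouse 3 or No operation mouse 2. Without SHAM mouse 1, 3 rose and 5 fell. Bgn, the small proteoglycan biglycan, rose by 1.51 (SE 0.261, edgeR adjusted p 0.000443) in SHAM and 1.41 (SE 0.260, edgeR adjusted p 0.000771) in Laminectomy. Fn1, fibronectin, rose by 1.43 (SE 0.351, edgeR adjusted p 0.00413) in SHAM and 1.89 (SE 0.356, edgeR adjusted p 0.000854) in Laminectomy. Dcn, the proteoglycan decorin, fell, at a log2 fold change of -1.73 (SE 0.360, edgeR adjusted p 0.00163) in Laminectomy and -0.94 (SE 0.353, edgeR adjusted p 0.0359) in SHAM; the SHAM value was not called without No operation mouse 3 (-0.62, edgeR adjusted p 0.131), SHAM mouse 2 (-0.86, 0.0871), SHAM mouse 3 (-0.91, 0.0736) or SHAM mouse 4 (-0.81, 0.0950), nor with library totals only (-0.70, 0.0983) or the replicate block (-0.87, 0.0743), with adjusted p of 0.0140 to 0.131 over the settings tried. Itga10, an integrin chain that binds collagen, fell, at a log2 fold change of -1.23 (SE 0.394, edgeR adjusted p 0.0173) in SHAM, but was not called without No operation mouse 2 (-0.94, edgeR adjusted p 0.0562) or with library totals only (-0.98, 0.0577), with adjusted p of 0.00474 to 0.0577 over the settings tried. In Laminectomy Itga10 went the other way and was not called, with 0.49 (SE 0.384). Vwf, von Willebrand factor, fell, at a log2 fold change of -1.10 (SE 0.244, edgeR adjusted p 0.00235) in Laminectomy and -0.72 (SE 0.242, edgeR adjusted p 0.0219) in SHAM.

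Collagen VIII has an alpha1 and an alpha2 chain. Col8a1 was at 195, 62.7, 87.4 and 43.3 CPM in No operation, 87.4, 145, 233 and 138 CPM in SHAM and 367, 304, 335 and 217 CPM in Laminectomy mice 1 to 4. All Laminectomy mice were above all No operation mice; SHAM overlapped both. Col8a1 rose in Laminectomy by a log2 fold change of 1.65 (SE 0.433, edgeR adjusted p 0.00641), which was 2.25 without No operation mouse 1, and was not called in SHAM, with 0.64 (SE 0.424, edgeR adjusted p 0.212). Without No operation mouse 1 the SHAM value was 1.23 and passed (edgeR adjusted p 0.00924, with 0.00924 to 0.508 over the settings tried). Laminectomy against SHAM gave 1.02 (SE 0.426, edgeR adjusted p 0.272).

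Col8a2 was at 96.8, 81.3, 211 and 84.3 CPM in No operation, 37.9, 80.6, 120 and 57.5 CPM in SHAM and 164, 164, 145 and 111 CPM in Laminectomy mice 1 to 4. No operation mouse 3 was high and the groups overlapped, except that 3 of 4 SHAM mice were below every Laminectomy mouse. Col8a2 was not called, with log2 fold changes of -0.67 (SE 0.372, edgeR adjusted p 0.134) in SHAM and 0.30 (SE 0.370, edgeR adjusted p 0.506) in Laminectomy against No operation. Without SHAM mouse 3 the SHAM value was -1.01 and passed (edgeR adjusted p 0.0339, with 0.0339 to 0.536 over the settings tried). The ratio of Col8a1 to Col8a2 in CPM per kilobase was 1.71, 0.654, 0.351 and 0.436 in No operation mice 1 to 4 and 1.53 to 2.03 in all surgical mice, or 1.03 to 1.37 in surgical mice with merged exons; its exact permutation test gave an adjusted p of 0.193 in both comparisons with No operation.

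Collagen XIII spans the membrane. Col13a1 was at 5.44, 35.2, 23.7 and 10.8 CPM in No operation, 1.35, 5.67, 4.02 and 7.79 CPM in SHAM and 18.1, 24.4, 11.3 and 12.4 CPM in Laminectomy mice 1 to 4. SHAM mice were low, with No operation mouse 1 within their range, and SHAM and Laminectomy did not overlap. Col13a1 fell, at a log2 fold change of -1.99 (SE 0.593, edgeR adjusted p 0.0121) in SHAM, -1.70 without SHAM mouse 1, and was not called in Laminectomy against No operation, with -0.18 (SE 0.562, edgeR adjusted p 0.795). Laminectomy against SHAM gave 1.81 (SE 0.589, edgeR adjusted p 0.179; DESeq2 adjusted p 0.0355, with 0.0355 to 0.411 over the settings tried).

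Of the other membrane-spanning collagens, 2 of 3 rose in SHAM and 1 of 3 in Laminectomy. Without SHAM mouse 1 these counts were 1 and 2, and the SHAM count was also 1 with the replicate block. By DESeq2, and without No operation mouse 4, 1 also fell in SHAM. Col23a1, the transmembrane collagen XXIII, rose by 2.45 (SE 0.333, edgeR adjusted p 8.37e-05) in SHAM and by 2.91 (SE 0.338, edgeR adjusted p 4.13e-05) in Laminectomy. Col17a1, a hemidesmosome collagen of epidermis, rose by 2.32 (SE 0.698, edgeR adjusted p 0.0129) in SHAM, where it was at 16.0, 1.55, 5.67 and 1.44 CPM in mice 1 to 4, and was not called in Laminectomy, with -0.01 (SE 0.702). The mice with the high Col17a1 values were those with high epidermal markers, and without SHAM mouse 1 the value was 1.24 (edgeR adjusted p 0.0574) and with the replicate block 1.92 (0.0537), neither of which was called, with adjusted p of 0.00157 to 0.0574 over the settings tried. Of the 11 neuromuscular junction genes listed, 2 rose and 6 fell in SHAM and 3 rose and 1 fell in Laminectomy. In Laminectomy 4 fell without SHAM mouse 1, which enters there through the shared fit, and 4 fell with only the compared groups; DESeq2 called 2 lower. The SHAM rises were 1 with the replicate block or without any of No operation or SHAM mice 2 to 4, and 0 with only the compared groups, where Chrng did not pass the low-count filter and was not tested. With at least 10 counts in every mouse, which tests fewer genes, 0 rose and 5 fell in SHAM, and 1 rose and 0 fell in Laminectomy. Chrng, the fetal acetylcholine receptor gamma subunit, was at 0 CPM in SHAM mouse 1 and at 25.4, 21.2 and 27.8 CPM in SHAM mice 2 to 4, beside 0 to 0.561 CPM in No operation and 20.3 to 30.2 CPM in Laminectomy mice. Chrnd, the delta subunit, was at 0.169 CPM in SHAM mouse 1, below all No operation mice at 3.93 to 6.62 CPM, and at 36.0, 23.9 and 32.3 CPM in SHAM mice 2 to 4. SHAM mouse 1 thus lay apart from the other SHAM mice for both genes. Chrng rose by 5.90 (SE 1.20, edgeR adjusted p 0.00131) in SHAM and 6.42 (SE 1.21, edgeR adjusted p 0.000879) in Laminectomy, and Chrne, the adult epsilon subunit, fell, at a log2 fold change of -3.47 (SE 0.746, edgeR adjusted p 0.00184) and -2.88 (SE 0.720, edgeR adjusted p 0.00495). Without SHAM mouse 1 the SHAM log2 fold changes were 6.32 for Chrng and 2.64 for Chrnd. Chrnd rose by 2.23 (SE 0.811, edgeR adjusted p 0.0319) in SHAM and 2.85 (SE 0.825, edgeR adjusted p 0.0111) in Laminectomy. Its SHAM value did not pass without No operation mouse 2 (2.16), 3 (2.13) or 4 (2.22) or without SHAM mouse 2 (1.93), 3 (2.21) or 4 (2.02), nor with the replicate block (1.93, edgeR adjusted p 0.113) or with only the compared groups (2.23, 0.0739), with adjusted p of 1.13e-05 to 0.113 over the settings tried. Dok7, a partner of the kinase Musk, fell, at a log2 fold change of -1.75 (SE 0.547, edgeR adjusted p 0.0158) in SHAM.

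Collagen XXII is placed at the myotendinous junction. Col22a1 was at 38.7, 156, 116 and 76.8 CPM in No operation, 1.35, 8.56, 6.94 and 22.6 CPM in SHAM and 44.2, 83.0, 31.7 and 39.2 CPM in Laminectomy mice 1 to 4. Every SHAM mouse was below every other mouse, and No operation and Laminectomy overlapped. Col22a1 fell, at a log2 fold change of -3.29 (SE 0.691, edgeR adjusted p 0.00157) in SHAM, -2.94 without SHAM mouse 1 and -4.10 without SHAM mouse 4. It was not called in Laminectomy against No operation, with -0.97 (SE 0.631, edgeR adjusted p 0.206). Laminectomy against SHAM gave 2.32 (SE 0.667, edgeR adjusted p 0.149; DESeq2 adjusted p 0.0107, with 0.0107 to 0.358 over the settings tried), and 3.13 without SHAM mouse 4, 1.98 without SHAM mouse 1 and 1.96 without Laminectomy mouse 2. The 5 cartilage markers, led by Comp, summed to 265, 839, 1278 and 654 CPM in No operation, 13.3, 71.6, 216 and 114 CPM in SHAM and 582, 1319, 446 and 284 CPM in Laminectomy mice 1 to 4, and each SHAM sum was below those of the other groups. Against No operation their genes did not move alike. In SHAM Sox9 rose and Comp and Chad fell, and in Laminectomy Acan and Sox9 rose and Chad fell. In Laminectomy against SHAM, edgeR called 0 of the 5 cartilage markers. All 5 were higher there at an unadjusted edgeR p under 0.05, beside 6.95% of all genes tested, and DESeq2 called 3 higher. All 5 bone markers were also higher at an unadjusted edgeR p under 0.05, with 0 called by edgeR and 1 by DESeq2. The 5 tendon markers, led by Thbs4, summed to 2932 to 7848 CPM in No operation, 303 to 2372 CPM in SHAM and 1159 to 2602 CPM in Laminectomy mice, and 3 fell in SHAM and 1 in Laminectomy. In Laminectomy against SHAM, 0 of the 5 tendon markers were under an unadjusted edgeR p of 0.05, and DESeq2 called 0. The part of the cartilage, bone and tendon markers in the Col22a1 and Col13a1 results was not tested.

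Of the 6 myotendinous junction genes listed, 3 fell in SHAM and 2 in Laminectomy, and 0 rose in either by edgeR, at an unadjusted p under 0.05 (0 of 6) or by DESeq2 (0 of 6); without No operation mouse 1, edgeR called 1 higher in Laminectomy. Adamts20, a secreted protease, fell, at a log2 fold change of -2.66 (SE 0.315, edgeR adjusted p 3.54e-05) in SHAM and -2.36 (SE 0.310, edgeR adjusted p 8.64e-05) in Laminectomy. Lama2, the laminin alpha2 chain of the muscle basement membrane, fell, at a log2 fold change of -0.99 (SE 0.278, edgeR adjusted p 0.00899) and -1.36 (SE 0.280, edgeR adjusted p 0.00154).

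Col18a1, the source of endostatin, was at 79.0, 83.1, 66.8 and 63.9 CPM in No operation, 301, 340, 394 and 416 CPM in SHAM and 400, 335, 302 and 411 CPM in Laminectomy mice 1 to 4. The No operation mice were tight and far below, and the surgical groups had similar ranges. Col18a1 rose by a log2 fold change of 2.31 (SE 0.153, edgeR adjusted p 2.11e-06) in SHAM and 2.30 (SE 0.153, edgeR adjusted p 3.32e-06) in Laminectomy, about 4.95-fold and 4.94-fold. Laminectomy against SHAM gave -0.00 (SE 0.145). The gene has several transcripts with different starts, which gene counts do not separate. Of 10 tested genes for endostatin release and binding, 5 rose and 1 fell in SHAM and 7 rose and 1 fell in Laminectomy, where 4 rose without Laminectomy mouse 1. In SHAM 2 fell by DESeq2 or without SHAM mouse 2. With library totals only, 0 fell in either comparison. Mmp14, a membrane-bound metalloproteinase, rose by 2.74 (SE 0.476, edgeR adjusted p 0.000455) in SHAM and 2.80 (SE 0.477, edgeR adjusted p 0.000460) in Laminectomy, or by 3.46 and 3.52 without No operation mouse 1. Mmp12, macrophage elastase, rose by 3.22 (SE 1.02, edgeR adjusted p 0.0165) in SHAM and 2.80 (SE 1.00, edgeR adjusted p 0.0303) in Laminectomy, or by 3.85 and 3.43 without No operation mouse 1. Its Laminectomy value did not pass without No operation mouse 3 (2.43) or Laminectomy mouse 1 (2.10), nor with only the compared groups (2.80), with adjusted p of 0.0107 to 0.0925 over the settings tried. Kdr, the endothelial VEGF receptor, fell, at a log2 fold change of -0.68 (SE 0.177, edgeR adjusted p 0.00591) in SHAM and -0.65 (SE 0.177, edgeR adjusted p 0.00784) in Laminectomy; with library totals only it was at -0.42 and -0.34 and not called.

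**Figure D3:**
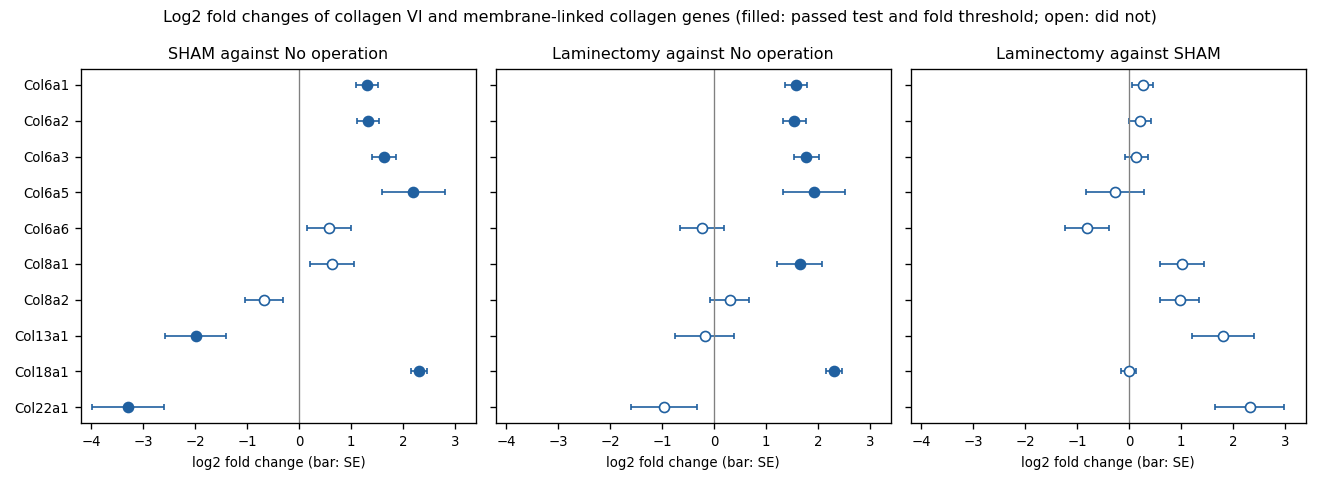
Log2 fold changes of the 10 genes in each comparison with SE bars; filled points passed the adjusted p and fold thresholds in edgeR and open points did not. Col22a1 and Col13a1 lie at -3.29 and -1.99 in SHAM against No operation, and no point is filled in Laminectomy against SHAM.

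Among the other collagen groups listed, 8 of 11 fibrillar collagens rose in SHAM and 9 of 11 in Laminectomy, and 1 and 0 fell. For that 0 in Laminectomy, edgeR gave 0 lower at an unadjusted p under 0.05 and DESeq2 called 0 lower. Col3a1 rose by 2.84 (SE 0.618, edgeR adjusted p 0.00197) in SHAM, by 4.03 without No operation mouse 1, and Col5a3 by 2.42 (SE 0.270, edgeR adjusted p 2.52e-05). Col11a2 fell, at a log2 fold change of -2.49 (SE 0.820, edgeR adjusted p 0.0203) in SHAM but did not pass without No operation mouse 2 (-1.76, edgeR adjusted p 0.0712, with 0.00411 to 0.0712 over the settings tried); in Laminectomy it was 0.35 (SE 0.775) and not called. Col5a1 rose by 2.52 (SE 0.441, edgeR adjusted p 0.000538) in Laminectomy, by 3.26 without No operation mouse 1, and Col5a2 by 2.20 (SE 0.382, edgeR adjusted p 0.000517).

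Of 9 tested FACIT and multiplexin collagens, 2 rose and 1 fell in SHAM and 5 rose and 1 fell in Laminectomy. With library totals only, 4 rose and 0 fell in SHAM and 6 rose and 0 fell in Laminectomy. Only 1 rose in SHAM with only the compared groups or without No operation mouse 2 or 4, SHAM mouse 3 or 4, or Laminectomy mouse 2 or 3. Col16a1 rose by 1.28 (SE 0.219, edgeR adjusted p 0.000400) in SHAM and 1.44 (SE 0.220, edgeR adjusted p 0.000215) in Laminectomy. Col12a1 rose by 0.74 (SE 0.287, edgeR adjusted p 0.0423) in SHAM, but did not pass without any of 8 libraries: No operation mouse 1 (0.79), 2 (0.66) or 4 (0.53), SHAM mouse 1 (0.70), 3 (0.65) or 4 (0.80), or Laminectomy mouse 2 (0.74) or 3 (0.74), nor with only the compared groups (0.74), with adjusted p of 0.00469 to 0.0978 over the settings tried. In Laminectomy Col12a1 rose by 1.29 (SE 0.290, edgeR adjusted p 0.00262). Col9a3 rose by 2.78 (SE 0.589, edgeR adjusted p 0.00182) in Laminectomy, by 3.61 without No operation mouse 2, and Col19a1 by 2.21 (SE 0.558, edgeR adjusted p 0.00517). Col20a1 fell, at a log2 fold change of -0.73 (SE 0.160, edgeR adjusted p 0.00209) in SHAM and -0.76 (SE 0.160, edgeR adjusted p 0.00176) in Laminectomy; with library totals only it was at -0.47 and -0.43, under the fold threshold.

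Of 9 tested genes for chains of collagens IV, VII, X, XXVI and XXVIII, 3 rose and 2 fell in each comparison with No operation; with library totals only, 5 rose in Laminectomy. Col4a3 fell, at a log2 fold change of -3.31 (SE 0.530, edgeR adjusted p 0.000257) in SHAM and -3.59 (SE 0.538, edgeR adjusted p 0.000195) in Laminectomy, and Col4a4 fell, at -2.31 (SE 0.437, edgeR adjusted p 0.000799) and -3.04 (SE 0.454, edgeR adjusted p 0.000191). Col4a1, a basement membrane chain, rose by 0.72 (SE 0.180, edgeR adjusted p 0.00462) in SHAM and 0.64 (SE 0.180, edgeR adjusted p 0.00974) in Laminectomy. Col26a1 rose by 1.70 (SE 0.560, edgeR adjusted p 0.0201) in SHAM, where it did not pass without SHAM mouse 4 (1.32, edgeR adjusted p 0.0664, with 9.06e-05 to 0.0664 over the settings tried), and by 2.38 (SE 0.567, edgeR adjusted p 0.00369) in Laminectomy. Col10a1, a chain of hypertrophic cartilage, rose by 4.18 (SE 1.40, edgeR adjusted p 0.0225) in Laminectomy, by 5.19 without No operation mouse 2, but did not pass without No operation mouse 4 (3.82) or Laminectomy mouse 2 (2.74), with adjusted p of 0.0166 to 0.108 over the settings tried.

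Genes with patterns most like a member were sought over the 12 mice among 14022 genes, as a description. Pearson's r of log2 CPM was 0.99 for Col6a1 with Tuba1a, Tyro3 and Armcx2, and 0.93, 0.92 and 0.89 after subtraction of group means. For Col8a1, C1qtnf3, Wrnip1 and Itga11 had r of 0.99, 0.97 and 0.96, and 0.98, 0.91 and 0.89 after that subtraction. For Col13a1, Col11a2, Ptprd and Fat3 had r of 0.97, 0.93 and 0.93, and 0.97, 0.94 and 0.97 after it. Col11a2, a fibrillar collagen of cartilage, was at a mean of 218 CPM in No operation, 39.0 CPM in SHAM and 279 CPM in Laminectomy mice. For Col18a1, Rhod, Mex3a and Srgap2 all had r of 0.99, with 0.80, 0.75 and 0.58 after subtraction. For Col22a1, Slc8a3, Wif1 and Map3k7cl had r of 0.96, 0.95 and 0.95, and 0.94, 0.82 and 0.84 after it. Among members, Col6a1 and Col6a2 had r of 0.997 and Col13a1 and Col22a1 had r of 0.933, with 0.978 and 0.926 after subtraction. All such values share the libraries, and those before subtraction also share the group differences.

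Col6a1 and Col6a2 lie on the same strand of chromosome 10, with 85161 bases between the annotated genes, while Col6a3 lies on chromosome 1. Because these chains moved together, the bases upstream of their RefSeq starts (build GRCm38.p6, minus strand) are shown, without bases of annotated exons: chr10:76726169-76726294 for Col6a1, chr10:76623631-76623880 for the farther start of Col6a2 and chr1:90843972-90844221 for Col6a3. Capitals mark GGGCGG on either strand. TATAAA and CCAAT, searched on both strands, were not found in these windows. For Col6a1 the 124 bases nearest its RefSeq start, out of 250, are annotated exon and are not shown. The nearer start of Col6a2 is not shown either, and its upstream window holds GGGCGG 3 times.
Col6a1: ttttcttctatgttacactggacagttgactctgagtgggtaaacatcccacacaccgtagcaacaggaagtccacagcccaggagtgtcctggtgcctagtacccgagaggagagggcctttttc
Col6a2: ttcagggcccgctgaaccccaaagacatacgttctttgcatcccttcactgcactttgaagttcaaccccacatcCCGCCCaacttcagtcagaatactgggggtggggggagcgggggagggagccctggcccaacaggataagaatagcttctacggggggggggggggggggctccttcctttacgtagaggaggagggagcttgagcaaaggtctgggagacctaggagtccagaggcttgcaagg
Col6a3: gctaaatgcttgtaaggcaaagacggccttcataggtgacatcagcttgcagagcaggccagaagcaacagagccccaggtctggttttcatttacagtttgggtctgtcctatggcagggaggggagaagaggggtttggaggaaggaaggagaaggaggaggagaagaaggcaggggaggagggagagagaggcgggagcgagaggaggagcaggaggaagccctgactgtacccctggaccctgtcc
RefSeq promoters matched 9 of the 10 genes with 11 starts. Over the whole upstream windows, GGGCGG was found at 7 of these 11 starts and in 32.7% of all promoters, CCAAT at 1 and in 33.9%, TATAAA at 1 and in 12.4%, and CANNTG at 4 and in 66.2%. A match is a description of letters only.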

How the data were processed

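Poly(A) RNA was sequenced as 100-base paired reads from a stranded kit. The submitters' processing notes name STAR 2.6.1b, featureCounts 2.0.1, DESeq2 1.30.1 and the mouse build GRCm38; the study's methods give default counting settings, under which featureCounts ignores strand. The authors deposited estimated counts per gene, of which 10.22% of values are not whole numbers, by a step not given in the sources used here; they were rounded for the tests. The planned test assumed counts that might need rounding. The series text says that 3 of the 4 mice in each group entered the authors' own tests, without naming them, so all 12 were used.

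edgeR 4.0.16 in R 4.3.3 was run with TMM scaling, filterByExpr by group and the quasi-likelihood test, with Benjamini-Hochberg adjustment over 14765 genes; 4231 genes were removed by the filter. Fold changes come from a fit of all groups. DESeq2 1.42.0 was an alternative, and ranges of adjusted p over the settings tried include its values. CPM use the TMM-scaled totals, and log2 CPM a prior count of 2. Lengths are those of principal coding transcripts in GENCODE M21; the plan named no length, and this one was chosen after the merged exon lengths were seen, with merged exons as an alternative. Named genes are all members, the listed genes with the largest called rises and falls (up to 2 each per list and comparison with No operation), the 3 genes most correlated with each of 5 members, and the most abundant gene of each marker list; not all of the listed genes are given here. Col6a4, Col1a2, and genes named beside a count were added after their values were seen. So were the Laminectomy values of Col12a1, Col16a1 and Col4a1 and the SHAM value of Vwf. These are not in the counts of fold changes under other settings. A listed gene given for only 1 comparison with No operation may also have been called in the other. The members and lists were chosen with earlier results of these data known. Overlapping antisense genes share 16 bases of exon with Col22a1 and 63 with Col6a6.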

Additional observations from a re-analysis of the deposited data

Results flagged for a closer look

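Within groups of 4 mice, 3 of the 30 sets of values had a mouse far from the others; chance gives about 1 in 20 such groups. Col6a5 was at 0.400 CPM in No operation mouse 3, beside 1.70 to 1.86 CPM in the other No operation mice. Col6a5 was at 15.6 CPM in SHAM mouse 1, beside 3.10 to 4.02 CPM in the other SHAM mice. The Col6a5 counts of these mice are whole numbers, 6 in No operation mouse 3 and 278 in SHAM mouse 1. How reads were assigned between Col6a5 and Col6a6 is not given in the sources used here. Col8a2 was at 211 CPM in No operation mouse 3, beside 81.3 to 96.8 CPM in the other No operation mice, and that mouse also had the highest cartilage and tendon marker sums of its group. The part of these markers in the value was not tested.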

How the results depend on the processing

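Of 651 log2 fold changes of the 10 genes under other settings, 631 kept their direction and their side of the threshold, 4 passed only under another setting, 1 passed only in the test reported and 15 changed sign, all 15 for values that were not called. Of 1022 for the named list genes, 976 kept both and 46 no longer passed. The settings that alter only the fold threshold keep the same fold changes. Leaving out a mouse of a group outside a comparison acts on that comparison only through the shared fit. Such settings could move few values, so both counts overstate stability. Col6a6 in Laminectomy against No operation was 0.0853 with library totals only, and -0.461 to 0.0590 with each library left out in turn. Col13a1 in the same comparison was 0.0965 with library totals only, 0.0763 with the replicate block and -0.490 to 0.311 with a library left out. Col6a5 in Laminectomy against SHAM was -0.621 to 0.592 with a library left out. Col18a1 there was 0.00208 with DESeq2, 0.00321 with RLE factors, 0.0586 with library totals only, 0.000684 with at least 10 counts in every mouse and -0.0762 to 0.0742 with a library left out. The cause was not tested.

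With a library left out, the log2 ratio of Col6a1 to Col6a2 differed by -0.0505 to 0.0119 in SHAM and -0.0155 to 0.0468 in Laminectomy against No operation. That of Col6a5 to Col6a3 differed by -0.344 to 0.665 in SHAM, by -0.390 to 0.426 in Laminectomy and by -0.536 to 0.474 in Laminectomy against SHAM. That of Col8a1 to Col8a2 differed by -0.0795 to 0.0577 in Laminectomy against SHAM. The number of ratio tests that passed was 0, also with a prior count of 0.5, but 11 of the 18 would have to reach the smallest p for any at that p to pass, and 4 did, so this 0 says little of stability. With a library left out no test can pass, as the smallest adjusted p possible over the 18 is then 0.0571, so those settings do not bear on this count.

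At an absolute log2 fold change over 1, 4589 genes in SHAM and 4323 in Laminectomy were called, beside 7502 and 7183; the higher threshold takes fewer genes. DESeq2 called 696 genes and 2 members in Laminectomy against SHAM, where edgeR called 0. The collagen VI share in Laminectomy was 7.96% without length scaling and 9.71% with merged exons, beside 9.03%. Members called were 6 to 8 in SHAM and 5 to 6 in Laminectomy against No operation over all settings; Col6a5 was not tested with at least 10 counts in every mouse, nor where both genes were counted together. With a replicate block, 7, 6 and 0 members were called. Correlations of deviations from group means ran from -0.228 to 0.352 between same-numbered samples. Between differently numbered samples they ran from -0.454 to 0.346. These ranges overlap, and negative values can also arise where a number marks shared handling. The correlations thus do not decide whether the numbers pair the samples.

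Col6a5, at 0.400 to 15.6 CPM, had the lowest group means in No operation and Laminectomy of the 10 genes, and its values are uncertain together with those of Col6a6.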
